A study of Mus musculus with 55 samples.

Results

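Pre-mRNA of mouse embryonic stem (ES) cells was compared between early G1 after the burst of transcription (90 and 120 min after release from mitosis) and the burst itself (50 and 60 min), to separate genes whose level fell once the burst had passed from genes that were still rising. The comparison uses 7 of the 55 libraries of the series, taken by their labelled line and time point: 60 min replicates 1 and 2 and 50 min replicate 3 form the burst, and 90 min replicates 1 and 3 and 120 min replicates 1 and 2 form the late libraries. All of them come from CCNA-GFP cells, which are E14Tg2a ES cells of the 129/Ola strain that carry a cyclin A-GFP reporter. The same time points of a second line, 4 burst and 4 late libraries of CTCF-AID cells without IAA, are set beside them. That line has the same E14Tg2a and 129/Ola background, and its CTCF carries a degron that auxin (IAA), absent here, would trigger. The cells were grown in serum and LIF, treated with the CDK1 inhibitor RO-3306 at 10 µM for 4 h and with nocodazole, a drug that depolymerises microtubules, at 50 ng/ml for 4 h, and the mitotic cells were shaken off and released. Every released library therefore shares both drugs, and none of the released cells came through mitosis untreated. The study describes 3 independent replicates, of which replicates 2 and 3 were sequenced at alternating times only, and late libraries were set against the burst library of the same replicate: 90 and 120 min against 60 min in replicate 1, 120 against 60 min in replicate 2 and 90 against 50 min in replicate 3. The 12 remaining CCNA-GFP libraries (3 asynchronous, 3 mitotic, and 2 each at 20, 30 and 40 min) entered the fit and serve as reference. A single library stands for 50 min, so that in replicate 3 the burst is an earlier time point than in the other replicates.

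During mitosis chromosomes condense and transcription largely stops, and as cells enter G1 RNA polymerase II returns to promoters and elongates through gene bodies. Polymerase needs minutes to cross a gene, so that a long gene is covered by nascent RNA later than a short one. Pre-mRNA still holds its introns and is soon spliced, and its level therefore follows ongoing transcription more closely than that of mRNA. Values are TPM (a transcript level normalised for length and library) of the pre-mRNA isoform of 9911 genes. TPM hold no read counts, so that the depth behind a value is unknown and differences are judged against the spread between replicates. The cells matched their label in 9 of 10 ES cell markers, which were listed with summed levels of 101–132 TPM in the burst libraries and 104–127 TPM in the late ones. The remaining ES cell marker, Sox2, was not among the listed genes. Each sum covers the listed members only, and their number differs between cell types. Of the markers of other cell types, 3 of 12 for primitive endoderm were listed (2.48–4.00 TPM summed in the burst, 3.49–5.26 TPM late), 1 of 12 for fibroblasts (0.449–0.723 and 0.440–0.765 TPM), 5 of 11 for trophectoderm (5.26–11.8 and 3.82–9.42 TPM), 3 of 10 for primed and mesodermal cells (4.18–8.52 and 4.81–9.51 TPM) and 3 of 10 for neural cells (5.90–9.62 and 4.99–8.41 TPM). The defining endoderm genes Gata4, Gata6 and Sox17 were, like Sox2, not among the listed genes.

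The microRNA genes Mir20a and Mir34a had the largest fall and, among the 12 rises described below and above 0 in every burst library, the largest rise, and their mature sequences are shown for this reason, with the seed (bases 2 to 8, which pairs with target mRNAs) in capitals. The RNA measured here is that of the gene's locus and not the mature microRNA. Both sequences are from RefSeq on GRCm38.p6, on the plus strand at chr14:115044183-115044205 and chr4:150068473-150068494, and the seeds differ.
mmu-miR-20a-5p: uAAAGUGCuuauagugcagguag
mmu-miR-34a-5p: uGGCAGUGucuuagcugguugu

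Promoters are shown for 5 genes that fell and that hold several copies of the letters CCAAT. Among the motifs searched, CCAAT differed by the most percentage points between promoters of falling and rising genes. The 5 genes shown are Fam72a, Aurka and Ccnb1, which act in or are expressed around mitosis, the sterol synthesis gene Msmo1 and the chaperone gene Hspa5. Each line gives the 250 bases before the RefSeq start on GRCm38.p6, 5′ to 3′ on the gene's own strand, with CCAAT or its reverse complement ATTGG in capitals. The regions are chr1:131527653-131527902 (plus strand), chr2:172370571-172370820 (minus), chr13:100786487-100786736 (minus), chr8:64733579-64733828 (minus) and chr2:34771840-34772089 (plus), and they hold 5, 2, 2, 3 and 4 copies.
Fam72a: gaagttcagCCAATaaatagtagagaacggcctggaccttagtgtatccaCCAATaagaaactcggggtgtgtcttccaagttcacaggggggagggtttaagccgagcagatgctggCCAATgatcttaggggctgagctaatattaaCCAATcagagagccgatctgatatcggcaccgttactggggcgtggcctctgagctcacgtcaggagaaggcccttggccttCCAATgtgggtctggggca
Aurka: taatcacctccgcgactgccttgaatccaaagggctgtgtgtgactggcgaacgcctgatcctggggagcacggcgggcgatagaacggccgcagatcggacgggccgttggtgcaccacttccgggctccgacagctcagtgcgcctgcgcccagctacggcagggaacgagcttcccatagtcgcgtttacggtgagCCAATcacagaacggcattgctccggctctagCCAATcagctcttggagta
Ccnb1: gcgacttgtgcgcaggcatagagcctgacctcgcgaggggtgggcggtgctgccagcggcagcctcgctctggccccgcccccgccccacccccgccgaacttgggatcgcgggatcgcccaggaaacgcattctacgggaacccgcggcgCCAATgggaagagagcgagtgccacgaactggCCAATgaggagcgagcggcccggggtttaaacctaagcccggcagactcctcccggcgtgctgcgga
Msmo1: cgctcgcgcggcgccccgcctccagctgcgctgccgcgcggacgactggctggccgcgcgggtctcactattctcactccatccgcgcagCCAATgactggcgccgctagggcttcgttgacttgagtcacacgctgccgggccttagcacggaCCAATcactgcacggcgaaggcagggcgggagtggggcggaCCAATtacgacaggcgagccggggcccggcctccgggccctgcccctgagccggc
Hspa5: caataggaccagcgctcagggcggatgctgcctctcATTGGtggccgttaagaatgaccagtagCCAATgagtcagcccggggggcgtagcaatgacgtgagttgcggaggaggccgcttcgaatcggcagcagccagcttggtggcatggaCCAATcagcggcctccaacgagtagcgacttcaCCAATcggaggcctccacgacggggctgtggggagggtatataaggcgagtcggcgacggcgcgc

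Relative to the burst, 2223 of 9911 genes were lower at 90 and 120 min (22.4%) and 1673 were higher (16.9%), while 6015 did not pass the test (limma on log2(TPM + 1) with the replicate as a block, adjusted p under 0.05). The genes that fell did so by a median of 0.40 on the log2 scale, and 53 of them by more than 1. Those that rose changed by a median of 0.36, and 7 of them by more than 1. Of the 2223 genes called lower, 1910 were lower in all 4 within-replicate differences, and of the 1673 called higher, 1419 were higher in all 4. Over all genes tested, 2387 (24.1%) were lower and 1806 (18.2%) higher in all 4 differences, whatever their p. With every library brought to an equal total, 2311 genes were lower (23.3%) and 2868 higher (28.9%; 52.3% in either direction), and these include 2066 of the 2223 and 1657 of the 1673. With each library divided by the factor of its smallest value steps, described below, 1504 were lower and 1737 higher. Without the replicate block 1267 were lower and 716 higher. The counts rest on few libraries: with replicate 1, 2 or 3 left out, 835, 1063 and 2913 genes were lower and 2013, 291 and 1005 higher. Leaving out 60 min replicate 1 gave 3100 genes higher, leaving out 60 min replicate 2 gave 929, and leaving out 50 min replicate 3 gave 964.

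The summed level of all genes overlapped between burst and late libraries. The listed TPM summed to 42576, 30992 and 36035 in the burst libraries (60 min replicates 1 and 2, 50 min replicate 3; this order is kept below) and to 34677, 41016, 31751 and 31694 in the late libraries (90 min replicates 1 and 3, 120 min replicates 1 and 2; this order is kept below). The ranges overlap, and the means of 36534 ± 5808 (SD, n = 3) and 34784 ± 4382 (SD, n = 4) gave an exact permutation p of 0.571. This test was two-sided and made without regard to replicates, and 3 against 4 libraries cannot go below 0.0571. Within replicates the median log2 difference over all genes was −0.18 and −0.26 in replicate 1 (90 and 120 min), 0.04 in replicate 2 and 0.17 in replicate 3, and 74.7% and 76.9% of genes were lower in replicate 1, 44.8% in replicate 2 and 30.1% in replicate 3. The same medians were 0.013–0.047 with equal totals. In bulk RNA, fewer transcribing cells and less RNA per cell cannot be told apart.

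**Figure D1:**
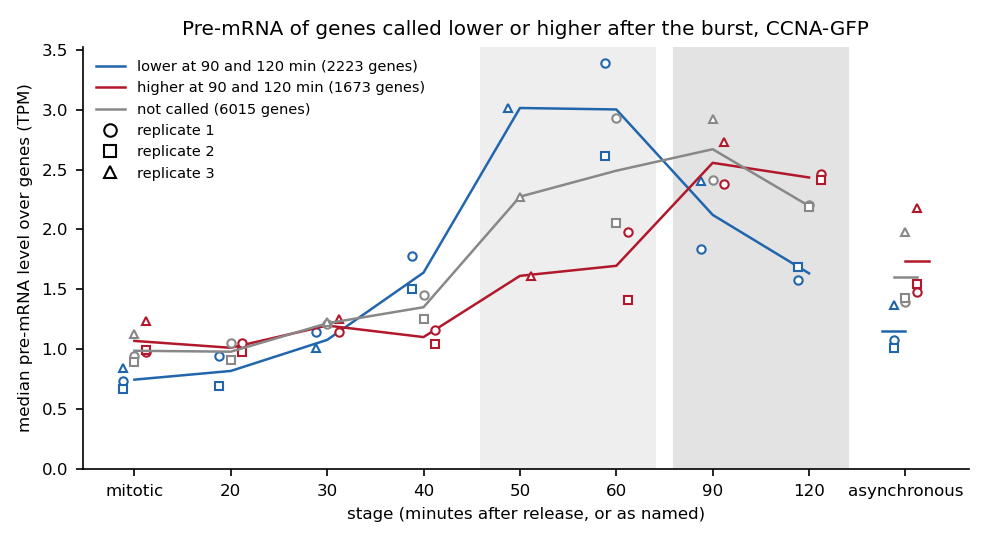
Median pre-mRNA level (TPM) of the genes called lower, higher or not called between the burst and the late libraries, at each stage (x axis, minutes after release, not to scale), with 1 symbol per library and lines through the stage means; light and dark bands mark the burst and the late libraries. Genes called lower are already above their mitotic level at 40 min and peak at 50 and 60 min, whereas genes called higher stay near the mitotic level until 40 min.

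The falling and the rising genes also differed in the stages outside the contrast, whose libraries entered the fit through the replicate block and the residual spread and are thus not fully independent of the calls. The median level over the 2223 falling genes was 0.66–0.84 TPM in mitotic libraries, 1.50–1.78 TPM at 40 min, 2.62–3.39 TPM in the burst, 1.58–2.40 TPM late and 1.01–1.37 TPM in asynchronous cells. The median over the 1673 rising genes was 0.98–1.24 TPM in mitosis, 1.04–1.16 TPM at 40 min, 1.41–1.98 TPM in the burst, 2.38–2.73 TPM late and 1.48–2.18 TPM in asynchronous cells. At 40 min against mitosis, where 41.2% of all genes were called higher, the share was 86.1% (1913) among falling genes, 4.48% (75) among rising genes and 34.8% among genes not called. The median log2 difference of 40 min from mitosis was 0.57 for falling genes, 0.05 for rising genes and 0.23 for genes not called. At 40 min 0.0303% of all genes were called lower than in mitosis. In asynchronous cells, where 66% of all genes were called higher and 1.73% lower than in mitosis (67.8% in either direction), the order was the opposite, with medians of 0.25 for falling, 0.38 for rising and 0.34 for other genes.

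The 12 largest falls that were seen in all 4 within-replicate differences were those of Mir20a, Polg2, Syf2, Hist1h2br, Cd68, Fam72a, Snhg15, Fgf18, Tmem230, Dnajb14, Insig1 and Glul. Mir20a, a 107-bp microRNA gene on chromosome 14 (115044157 to 115044263, GRCm38), was at 10.5, 9.65 and 12.2 TPM in the burst and at 1.44, 3.61, 1.17 and 1.56 TPM late, a log2 difference of −2.08 (standard error 0.32, adjusted p = 8.3e-05, limma). All late libraries were below all burst libraries. The gene lies inside the host transcript Mir17hg on the same strand, whose reads cannot be separated from its own. Fam72a (chromosome 1, 131527903 to 131539872) went from 8.30, 6.72 and 9.23 TPM to 1.51, 2.98, 1.32 and 1.72 TPM, a 3.22-fold lower level on the TPM + 1 scale (log2 −1.69, standard error 0.14, limma adjusted p = 4.6e-07). Its product is known as an antagonist of the uracil glycosylase Ung, and the gene is expressed in proliferating cells. Hist1h2br, an H2B histone gene on chromosome 13 (21833743 to 21837530), was at 15.3, 11.8 and 36.7 TPM in the burst, highest at 50 min, and at 3.89, 8.44, 5.25 and 3.19 TPM late. Histone genes share near-identical copies, among which reads can be split. The paper plots histone genes by their mRNA and its other example genes by pre-mRNA, whereas the histone values here are those of the pre-mRNA isoform.

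Among the same genes, Glul (chromosome 1, 153899944 to 153909723), which encodes glutamine synthetase, fell from 8.26, 9.19 and 11.8 TPM to 2.52, 3.96, 2.28 and 3.32 TPM (log2 −1.42, standard error 0.14, limma adjusted p = 1.2e-06). Fgf18, a gene for a secreted fibroblast growth factor (chromosome 11, 33117430 to 33147400), fell from 5.86, 4.67 and 4.60 TPM to 0.901, 2.21, 0.624 and 0.907 TPM (log2 −1.52, standard error 0.14, limma adjusted p = 1e-06). In these genes, as in all 12 except Snhg15, the highest late library was still below the lowest burst library. Snhg15, a host gene of a small nucleolar RNA, was at 24.3, 14.7 and 31.4 TPM in the burst and at 3.03, 15.1, 7.56 and 6.88 TPM late, so that 90 min replicate 3 overlaps the burst range. Its log2 difference of −1.64 (standard error 0.49, limma adjusted p = 0.013) was no longer called without replicate 1, without 60 min replicate 2 or without the block. Of the 4 late libraries, 90 min replicate 3 was the highest in each of the 12 genes, and its summed TPM was also the highest of the 4.

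In 5 of the 12 largest falls a listed gene on the same strand ends within 5 kb upstream. Npm1, which is not among the listed genes, also lies within 5 kb of Fgf18 on the same strand. Polg2, a subunit gene of mitochondrial DNA polymerase (chromosome 11, 106768253 to 106779537), starts with 817 bases between it and the end of Ddx5, and went from 16.1, 14.1 and 17.1 TPM to 3.17, 7.16, 2.13 and 3.13 TPM (log2 −1.84, standard error 0.18, limma adjusted p = 1.2e-06). Cd68, a macrophage lysosomal protein gene (chromosome 11, 69664213 to 69666153), starts 782 bases after Eif4a1 and went from 24.4, 20.97 and 27.7 TPM to 7.07, 12.8, 4.22 and 4.94 TPM (log2 −1.70, standard error 0.17, limma adjusted p = 1.2e-06). Syf2 starts 3226 bases after Rsrp1, Tmem230 1354 bases after Pcna and Dnajb14 752 bases after H2afz. The upstream genes, named after their values were seen except for Pcna, had lower levels late as well, with log2 differences of −0.49 (Ddx5), −0.51 (Eif4a1), −0.46 (Rsrp1), −0.65 (Pcna) and −0.54 (H2afz), all called and all smaller than those of the downstream genes. Their mean levels in the burst were 29.9, 36.8, 28.4, 25.5 and 12.5 TPM. Over all genes, such an upstream neighbour was present for 296 of 2222 falling genes (13.3%), 123 of 1671 rising genes (7.36%) and 1094 of 9900 genes in all (11.1%). Whether RNA that runs past the end of the upstream gene takes part in these values was not tested.

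**Figure D2:**
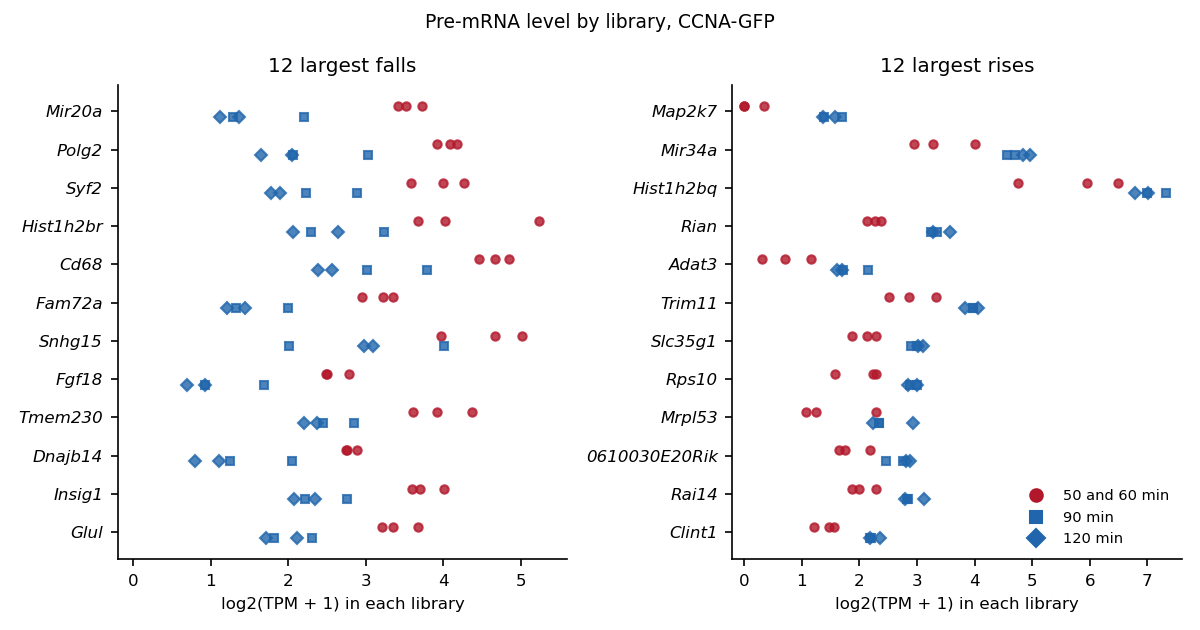
Level in each of the 7 libraries, as log2(TPM + 1) on the x axis, for the 12 genes with the largest falls (left) and the 12 with the largest rises (right); circles are burst libraries, squares 90 min and diamonds 120 min. Late libraries lie below all burst libraries for each falling gene except Snhg15, and above them for each rising gene except Mrpl53.

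The 12 largest rises seen in all 4 differences were those of Map2k7, Mir34a, Hist1h2bq, Rian, Adat3, Trim11, Slc35g1, Rps10, Mrpl53, 0610030E20Rik, Rai14 and Clint1. Mir34a, a p53-induced microRNA gene on chromosome 4 (150068454 to 150068555), rose from 15.2, 6.72 and 8.67 TPM in the burst to 25.02, 22.5, 30.2 and 27.7 TPM late (log2 1.36, standard error 0.31, limma adjusted p = 0.00197), against 2.40 ± 1.70 TPM in mitosis and, in asynchronous cells, 8.86 ± 0.764 TPM (SD, n = 3 each). Every late library was thus above every burst library and above the asynchronous mean. Rian, a noncoding RNA gene of the imprinted Dlk1-Dio3 cluster on chromosome 12 (109603940 to 109661716), was at 3.39, 4.17 and 3.81 TPM in the burst and 8.51, 9.24, 8.70 and 10.9 TPM late, a 2.22-fold rise on the TPM + 1 scale (log2 1.15, standard error 0.10, limma adjusted p = 4.6e-07). Its burst level was below its mitotic level of 5.36 ± 0.874 TPM, and its late level was close to the 9.20 ± 1.36 TPM of asynchronous cells (SD, n = 3 each). Trim11, which encodes a ubiquitin ligase (chromosome 11, 58978093 to 58991458), rose from 9.09, 4.74 and 6.27 TPM to 14.7, 14.7, 15.7 and 13.4 TPM (log2 1.04, standard error 0.15, limma adjusted p = 3.4e-05).

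Hist1h2bq, a second H2B gene, rose where Hist1h2br fell: it was at 88.8, 60.9 and 26.0 TPM in the burst, lowest at 50 min, at 159, 127, 127 and 109 TPM late and in asynchronous cells at 291 ± 25.3 TPM (SD, n = 3). Its log2 difference was 1.22 (standard error 0.22, limma adjusted p = 0.00033), with the same limit on reads shared among copies. Map2k7, the gene of a kinase that activates JNK, was listed at 0.266, 0 and 0 TPM in the burst and at 1.62, 2.27, 1.98 and 1.60 TPM late, and no fold is given for it. Gm49320, on the same strand, overlaps 9033 bases of it, Gm42688 all 900 bases of Mrpl53 and RPS10-NUDT3 4805 bases of Rps10, so that reads cannot be assigned to 1 gene in these places. Adat3, a tRNA deaminase subunit gene that lies within Scamp4 on the same strand, was at 0.647, 0.247 and 1.24 TPM and then at 2.31, 3.44, 2.05 and 2.25 TPM, and its call was lost without the block. Rai14 (chromosome 15, 10568969 to 10714624), an actin-associated protein gene that spans 146 kb, rose from 3.88, 2.69 and 2.99 TPM to 6.16, 6.12, 7.74 and 5.91 TPM (log2 0.85, standard error 0.12, limma adjusted p = 4.7e-05). Clint1, a gene for a clathrin adaptor, rose from 1.94, 1.31 and 1.77 TPM to 3.57, 3.63, 4.11 and 3.53 TPM (log2 0.84, standard error 0.11, limma adjusted p = 1.9e-05). In Mrpl53 the lowest late library (3.72 TPM) was below the highest burst library (3.92 TPM).

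Of the sterol synthesis genes 68.0% fell, beside 22.4% of all genes. They encode the enzymes that build cholesterol and the regulators that sense it, and of 25 listed 17 were lower late and 0 higher, with a median log2 difference of −0.39 against −0.014 over all genes tested. Insig1, which holds the sterol sensor in the endoplasmic reticulum, was at 12.02, 11.1 and 15.2 TPM in the burst and 3.64, 5.74, 3.23 and 4.07 TPM late (log2 −1.43, standard error 0.16, limma adjusted p = 3.2e-06). Idi1, an isoprenoid isomerase gene, went from 6.24, 5.80 and 10.7 TPM to 2.38, 4.24, 1.69 and 2.66 TPM. Msmo1, a sterol oxidase gene with 3 CCAAT copies in the promoter printed above, had a log2 difference of −0.73 (standard error 0.12, limma adjusted p = 0.00013). In each of these 3 genes every late library lay below every burst library. Asynchronous cells held 3.499 ± 0.320 TPM of Insig1 (SD, n = 3), and 1 of 4 late libraries was below this mean. With replicate 1, 2 or 3 left out 7, 9 and 18 members were lower, against 15 without the block and 18 with equal totals. Of all 9911 genes, 835, 1063 and 2913 were lower with these replicates left out, 1267 without the block and 2311 with equal totals.

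Of 38 genes of the mitotic spindle and kinetochore, whose products act in mitosis itself, 21 (55.3%) fell and 1 (2.63%) rose, beside 22.4% and 16.9% of all genes, with a median log2 difference of −0.31. Aurka, the gene of a spindle pole kinase, was at 5.10, 3.46 and 6.42 TPM in the burst and at 1.44, 2.60, 1.32 and 1.47 TPM late (log2 −1.13, standard error 0.11, limma adjusted p = 1.2e-06). Ccnb1, which encodes cyclin B1, went from 23.4, 18.6 and 33.9 TPM to 12.6, 17.7, 10.7 and 10.1 TPM (log2 −0.91, standard error 0.12, limma adjusted p = 1.2e-05). Mitotic cells held 1.74 ± 0.335 TPM of Aurka and 13.4 ± 2.10 TPM of Ccnb1 (SD, n = 3 each). Both genes were above these means in every burst library and below them in 3 of 4 late libraries, with 90 min replicate 3 the exception. Ube2c, the gene of the ubiquitin-conjugating enzyme of the anaphase-promoting complex, fell by 0.94 on the log2 scale, although 90 min replicate 3 (4.97 TPM) was above 60 min replicate 2 (4.56 TPM). The 1 member that rose, Cit (log2 0.23, limma adjusted p = 0.0475), is 163 kb long, encodes a kinase of the cleavage furrow and lost its call in 14 of 22 alternatives. With replicate 1, 2 or 3 left out 15, 15 and 28 members were lower, beside 835, 1063 and 2913 of all 9911 genes.

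Of 20 heat shock chaperone genes 11 (55.0%, beside 22.4% of all genes) were lower, 0 were higher and 9 did not pass the test (median log2 −0.35). Without replicate 1 the count of lower genes was 7, beside 835 of all 9911 genes. Hspa5, the chaperone BiP of the endoplasmic reticulum, went from 12.2, 9.90 and 14.04 TPM to 6.20, 7.62, 5.06 and 6.01 TPM (log2 −0.86, standard error 0.13, limma adjusted p = 7.7e-05). Dnaja1, a co-chaperone gene, went from 13.5, 11.8 and 16.6 TPM to 6.85, 8.53, 6.61 and 8.04 TPM, and its late libraries again lay below all burst libraries. Of 18 immediate early genes, which respond to growth factors within minutes, 10 (55.6%) were lower, 1 was higher and 7 did not pass (median log2 −0.49). Their count of lower genes stayed at 9–11 with a replicate left out, beside 835–2913 of all 9911 genes. Klf10, a zinc finger repressor gene, fell from 6.05, 6.01 and 8.54 TPM to 2.52, 3.66, 2.39 and 2.75 TPM (log2 −1.03, standard error 0.12, limma adjusted p = 4.2e-06). Zfp36l1, which encodes a protein that promotes mRNA decay, fell by 1.03 and Gadd45b, a stress response gene, by 1.01 on the log2 scale. Egr1 went from 3.08, 4.81 and 3.83 TPM to 1.23, 1.48, 1.36 and 2.00 TPM (log2 −0.99, standard error 0.17, limma adjusted p = 0.00018) and Myc from 7.38, 5.69 and 7.11 TPM to 3.82, 4.97, 3.34 and 4.07 TPM (log2 −0.64, standard error 0.15, limma adjusted p = 0.00208).

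Fos did not pass the test, at 2.02, 2.72 and 2.19 TPM in the burst and 1.55, 1.61, 1.25 and 1.78 TPM late (limma adjusted p = 0.166), although it was lower in 4 of 4 differences. Fosl1, another member of the AP-1 family, rose instead, from 1.29, 1.17 and 1.40 TPM to 1.84, 2.73, 2.61 and 2.41 TPM (log2 0.58, standard error 0.09, limma adjusted p = 8.4e-05), and asynchronous cells held 0.303 ± 0.121 TPM (SD, n = 3). Of 21 p53 targets listed, 11 (52.4%) were lower and 3 (14.3%) higher, beside 22.4% and 16.9% of all genes. Ccng2, an unconventional cyclin gene, went from 3.65, 3.78 and 4.55 TPM to 1.08, 1.69, 0.881 and 1.09 TPM (log2 −1.21, standard error 0.12, limma adjusted p = 1.4e-06), and Pmaip1, which encodes the pro-death protein Noxa, fell by 0.98. Perp, an adhesion gene, rose by 0.58 and Polk, the gene of a translesion polymerase, by 0.57, the latter not without replicate 2. Without replicate 1, 2 or 3, 7, 7 and 12 p53 targets were lower and 3, 1 and 2 higher. Of all 9911 genes, 835, 1063 and 2913 were lower and 2013, 291 and 1005 higher in the same fits.

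Among pluripotency factors, 7 of 26 were lower and 3 higher, shares of 26.9% and 11.5% that lie near the 22.4% and 16.9% of all genes. Klf4 went from 6.66, 6.15 and 9.31 TPM to 3.03, 4.75, 2.83 and 3.41 TPM (log2 −0.90, standard error 0.14, limma adjusted p = 0.0001), and Nanog from 9.82, 9.51 and 10.3 TPM to 4.97, 7.08, 3.49 and 6.32 TPM (log2 −0.75, standard error 0.13, limma adjusted p = 0.00031). In both genes the groups did not overlap. Oct4 (Pou5f1) was at 21.8, 13.7 and 19.2 TPM and then at 14.6, 18.5, 12.6 and 10.9 TPM, ranges that overlap. Its log2 difference of −0.39 (standard error 0.13, limma adjusted p = 0.0212) was lost in 10 of 22 alternatives, among them without replicate 1, without replicate 2 and without the block. Esrrb, a nuclear receptor gene of 161 kb, was at 5.82, 2.72 and 3.86 TPM in the burst and 5.44, 6.42, 4.88 and 3.72 TPM late (log2 0.25, limma adjusted p = 0.17), and it was called higher with equal totals. Nr0b1 (log2 0.58, limma adjusted p = 0.0138) and Nr5a2 (log2 0.50, limma adjusted p = 0.0197), which encode the nuclear receptors Dax1 and Lrh-1, rose, and neither call held without replicate 2. With equal totals 6 factors were lower and 9 higher, without the block 4 and 0. Without replicate 1, 2 or 3 the numbers were 3, 3 and 7 lower and 4, 0 and 1 higher, and without 60 min replicate 1, 5 lower and 8 higher. Of all 9911 genes, 835, 1063 and 2913 were lower and 2013, 291 and 1005 higher without replicate 1, 2 or 3. In the fit without 60 min replicate 1, 1589 of all genes were lower and 3100 higher.

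Of 32 ubiquitin ligase genes (cullins, which are scaffolds, and HECT ligases, Ubr ligases and Birc6), 12 (37.5%) were higher and 3 (9.38%) lower (median log2 0.20), beside 16.9% higher and 22.4% lower among all genes. By length, the higher share among all genes was 25.2% at 50–100 kb, 47.8% at 100–200 kb and 46.4% above 200 kb. These differences in share were not tested. Cul2, the cullin of the VHL ligase, went from 2.13, 1.27 and 1.64 TPM to 3.10, 3.44, 3.27 and 2.53 TPM (log2 0.61, standard error 0.09, limma adjusted p = 8.7e-05), and Birc6, a gene of 175 kb for a giant ubiquitin-conjugating enzyme that inhibits caspases, from 1.41, 1.03 and 1.11 TPM to 2.16, 2.40, 1.65 and 2.00 TPM. Cul7, a cullin gene of only 14.03 kb, went the other way, from 3.58, 4.07 and 3.09 TPM to 1.44, 2.16, 0.881 and 1.81 TPM (log2 −0.82, standard error 0.12, limma adjusted p = 3.5e-05). Gm26904 covers all 14028 bases of Cul7 on the same strand, and Mrpl2, which ends 197 bases upstream, had a log2 difference of −0.76, so that reads cannot be assigned to Cul7 alone. Of 39 chromatin remodeller genes 9 were higher and 2 lower (median log2 0.11), and their share of 23.1% higher lies below the 25.2% of all genes of 50–100 kb. Chd7, the gene of a nucleosome-sliding ATPase (176 kb), rose from 1.03, 0.884 and 0.714 TPM to 1.37, 1.503, 1.47 and 1.69 TPM, and Arid2, of a SWI/SNF complex, by 0.43 on the log2 scale. Neither call held without replicate 2.

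These counts of rising members moved with the libraries. Without replicate 1, 2 or 3 they were 16, 4 and 6 for the ligases and 12, 0 and 5 for the remodellers, and without the block 7 and 1. With 60 min replicate 1 left out they were 20 and 19, with 60 min replicate 2 left out 7 and 4, with 50 min replicate 3 left out 7 and 5, and with equal totals 20 and 18. Of all 9911 genes, 2013, 291 and 1005 were higher without replicate 1, 2 or 3, and 716 without the block. The fits without 60 min replicate 1, 60 min replicate 2 or 50 min replicate 3 gave 3100, 929 and 964 higher genes, and equal totals gave 2868. The listed members are long, with median transcript spans of 87.1 and 70.2 kb against 22.2 kb over all genes. Set against the median of all genes in the same length class, the median log2 difference of the remodellers was 0.04 and that of the ligases 0.10. For the falling lists the median and this length-matched median were −0.39 and −0.36 for sterol synthesis, −0.31 and −0.33 for spindle and kinetochore genes, −0.35 and −0.24 for chaperones, −0.49 and −0.36 for immediate early genes, −0.26 and −0.22 for p53 targets and −0.29 and −0.17 for tubulins. The part of length in these values was not tested.

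**Figure D3:**
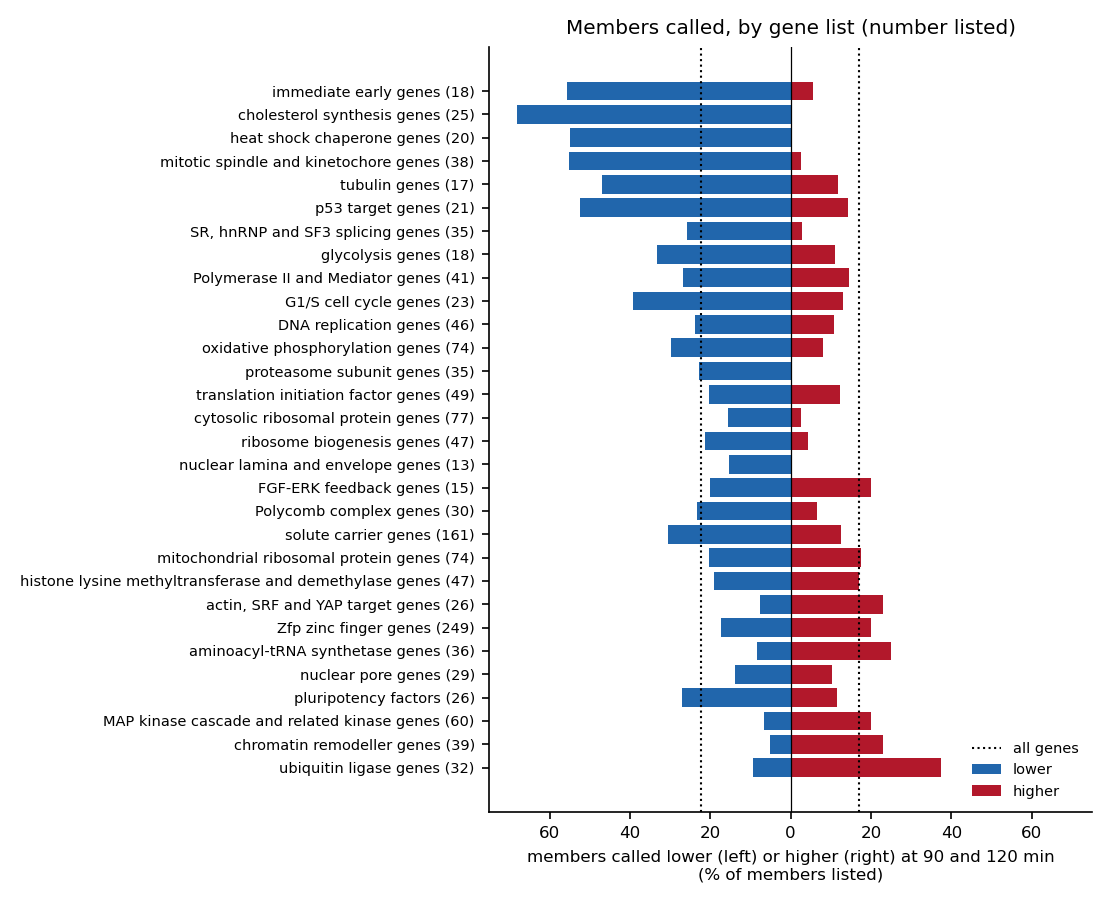
Share of the listed members of each gene list reported here with at least 13 listed genes (number in parentheses) called lower (bars to the left) or higher (bars to the right) at 90 and 120 min relative to the burst, in percent; dotted lines mark the shares over all 9911 genes, 22.4% and 16.9%. Lists are ordered by their median log2 difference, from immediate early and sterol synthesis genes at the top to chromatin remodellers and ubiquitin ligases at the bottom.

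Of 46 DNA replication genes 11 (23.9%) were lower, among them Mcm4 and Pcna, and 5 (10.9%) higher, among them Pola1 and Tk1. These shares lie near the 22.4% and 16.9% of all genes. With equal totals 17 of the 46 were lower and 9 higher, beside 23.3% and 28.9% of all genes. Pcna, the sliding clamp gene, fell from 26.6, 21.1 and 28.9 TPM to 15.8, 19.8, 15.0 and 13.8 TPM (log2 −0.65, standard error 0.11, limma adjusted p = 0.00014), whereas Pola1, the polymerase alpha gene that spans 327 kb, rose from 2.36, 1.31 and 2.33 TPM to 3.28, 3.93, 3.85 and 3.00 TPM (log2 0.61, standard error 0.11, limma adjusted p = 0.00024). Of 23 G1/S genes 9 were lower and 3 higher. Cks1b, a CDK-binding subunit gene of 2.91 kb, fell by 0.86 and Ccne2, which encodes cyclin E2, by 0.77 on the log2 scale, while E2f3 (79.5 kb) rose by 0.61, not without replicate 2. Without replicate 1, 2 or 3, 3, 2 and 17 replication genes and 4, 3 and 11 G1/S genes were lower. In the same order, 9, 3 and 5 replication genes and 5, 0 and 1 G1/S genes were higher. Without 60 min replicate 1, 9 replication genes and 6 G1/S genes were higher, beside 3100 of all 9911 genes. Of all genes, 835, 1063 and 2913 were lower and 2013, 291 and 1005 higher without replicate 1, 2 or 3.

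Polycomb genes had 7 lower (23.3%) and 2 higher (6.67%) of 30, beside 22.4% and 16.9% of all genes, so that their share of lower genes is that of the background. Cbx8, a chromodomain gene, fell by 0.88 on the log2 scale, from 1.75, 1.80 and 1.85 TPM to 0.505, 1.07, 0.367 and 0.250 TPM, with 0.0829 ± 0.0257 TPM in mitosis and, in asynchronous cells, 0.0270 ± 0.00346 TPM (SD, n = 3 each). Every burst and late library was thus above both reference means of Cbx8. With this asynchronous level, Cbx8 was listed only through its post-mitotic samples, under the authors' filter of 0.5 TPM. Its excess over the references was therefore in part set by that filter and was not tested. Tubulins, the subunits of the microtubules that nocodazole depolymerises, had 8 of 17 lower (47.1%) and 2 higher (11.8%), with Tubb5 falling from 19.4, 17.4 and 23.7 TPM to 13.6, 17.2, 11.2 and 11.8 TPM (log2 −0.56, standard error 0.11, limma adjusted p = 0.00084). Of 161 solute carrier genes 49 (30.4%) were lower and 20 (12.4%) higher, with Slc16a1, a lactate transporter gene, at −1.07 and Slc25a13, a mitochondrial carrier gene of 176 kb, at 0.66 on the log2 scale. Cytosolic ribosomal protein genes had 12 of 77 lower (15.6%) and 2 higher (2.60%), and 63 did not pass the test. The Zfp zinc finger genes, with 43 lower and 50 higher of 249, and mitochondrial ribosomal protein genes, with 15 lower and 13 higher of 74, had shares near those of all genes. These counts also moved with the libraries. Without replicate 1, 2 or 3, 16, 26 and 58 solute carrier genes were lower and 21, 3 and 12 higher, 9, 14 and 57 Zfp genes lower and 51, 6 and 29 higher, and 3, 3 and 18 mitochondrial ribosomal protein genes lower and 15, 1 and 8 higher. In the same order, 5, 3 and 10 tubulin genes, 4, 4 and 9 Polycomb genes and 5, 5 and 7 cytosolic ribosomal protein genes were lower. Without 60 min replicate 1 the higher genes were 37 solute carriers and 94 Zfp genes, and without 60 min replicate 2, 8 and 26, beside 3100 and 929 of all 9911 genes. Of all genes, 835, 1063 and 2913 were lower and 2013, 291 and 1005 higher without replicate 1, 2 or 3.

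Falling genes were shorter than rising genes. The longest annotated transcript spanned a median of 14.01 kb in falling genes, 50.5 kb in rising genes, 23.4 kb in genes not called and 22.2 kb in all. Of the 1112 genes up to 5 kb, 31.8% were lower and 6.29% higher, and of the 1407 genes of 5–10 kb, 33.9% and 11.4%. The balance turned with length, with 21.7% lower and 13.1% higher of 2856 genes at 20–50 kb, and 8.01% and 25.2% of 1411 genes at 50–100 kb. Of the 719 genes of 100–200 kb only 2.09% (15) were lower and 47.8% (344) higher, and of the 308 genes over 200 kb 1.30% (4) and 46.4% (143). The median log2 difference went from −0.14 in the shortest class to 0.21 at 100–200 kb and 0.19 above. In each of the 4 within-replicate differences the medians of both classes above 100 kb were above those of the 3 classes up to 20 kb. With equal totals the shares were 26.5% lower and 8.99% higher up to 5 kb, and 2.36% and 64.4% at 100–200 kb. The largest change in the direction of its class was the fall of Mir20a up to 5 kb, of Syf2 at 5–10 kb, of Polg2 at 10–20 kb and of Fgf18 at 20–50 kb, and the rise of Clint1 at 50–100 kb, of Rai14 at 100–200 kb and of Pvt1 above. Pvt1, a noncoding RNA gene of 340 kb next to Myc on chromosome 15 (62037986 to 62378096), rose from 3.04, 1.77 and 4.44 TPM to 4.65, 6.80, 6.79 and 5.41 TPM (log2 0.80, standard error 0.13, limma adjusted p = 0.00015), while Myc, of 4.96 kb, fell. Falling genes also held fewer exons (a median of 7 against 11 in rising genes). Genes up to 5 kb still held 70 rising members, and short genes are therefore found in both classes.

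**Figure D4:**
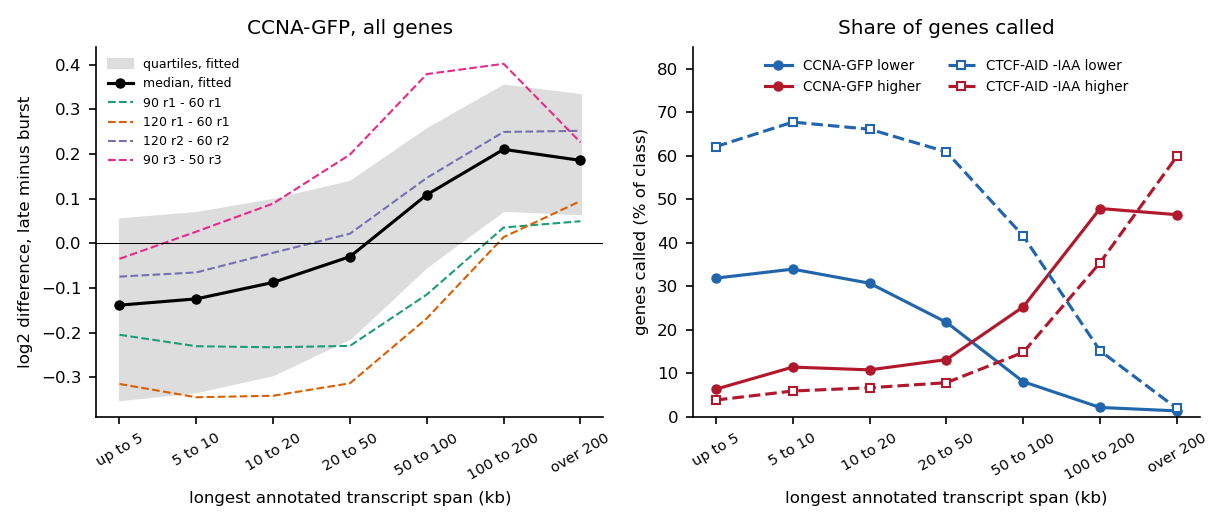
Left, median log2 difference (late minus burst) of all CCNA-GFP genes by class of longest annotated transcript span (kb); the black line is the fitted difference with quartiles in grey, and dashed lines are the 4 within-replicate differences (r, replicate). Right, share of genes called lower or higher (%) in each class, for CCNA-GFP (solid) and CTCF-AID without IAA (dashed); in CCNA-GFP the higher share passes the lower one between 20–50 and 50–100 kb.

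Of the promoters of the falling genes, 47.6% held CCAAT, against 32.9% of those of the rising genes. The 300 bases from 250 before to 50 after the RefSeq start were searched on both strands for 8005 of the 9911 genes, with 1825 falling and 1321 rising genes among them. CCAAT, the letters bound by the factor NF-Y, were present in 40.1% of the 8005 and in 37.4% of all 32851 promoters in the table. Within length classes the share was above that of the rising genes in every class up to 200 kb. At 20–50 kb it was 50.1% of 501 falling genes and 33.8% of 296 rising genes, against 41.2% of all matched genes in the class. Above 200 kb only 3 falling genes were matched, and 0 held it. GGGCGG was present in 73.2% of falling, 63.1% of rising and 68.2% of all matched genes, CACGTG in 13.4%, 9.69% and 11.1%, and TGACGTCA in 4.60%, 3.03% and 3.66%. The letters of the TATA box, TATAAA, were in 7.29% and 6.06%, and CCGGAAG in 19.6% and 19.3%. CGCATGCG was in 5.10% of falling and 2.80% of rising genes, and AAGATGGC in 5.48% and 3.63%. In proportion, CGCATGCG, TGACGTCA and AAGATGGC differed more between falling and rising genes than CCAAT. Of these other motifs none contains CCAAT, though a CArG box, which was also searched (1.21% and 1.44%), can. A match describes letters in a window and not a bound factor.

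Each late time point was also set against 60 min alone. At 90 against 60 min 1304 genes (13.2%) were lower and 261 (2.63%) higher, and at 120 against 60 min 2824 (28.5%) were lower and 951 (9.60%) higher. Of the 2223 falling genes 1269 were also lower at 90 min alone and 2026 at 120 min alone, and of the 1673 rising genes 255 and 909 were higher. With equal totals the counts of higher genes were 1414 at 90 min and 2420 at 120 min. Without the block 299 genes were lower and 58 higher at 90 min, and 1195 and 177 at 120 min. Between 120 and 90 min 0 genes were lower and 1 was higher (0.0101%; limma), with 604 genes at an unadjusted p under 0.05 and 0 lower and 2 higher with equal totals. The single gene, named after its values were seen, was Mirg, a microRNA host gene of the same imprinted cluster as Rian. It was at 1.44 and 0.683 TPM at 90 min (replicates 1 and 3) and at 5.03 and 6.69 TPM at 120 min (replicates 1 and 2), a log2 difference of 1.62 (standard error 0.17, limma adjusted p = 5.35e-05). In replicate 1, the only replicate with both time points and 1 library at each, the class median went from 1.84 to 1.58 TPM for falling genes, from 2.38 to 2.46 TPM for rising genes and from 2.42 to 2.20 TPM for genes not called, while the summed TPM went from 34677 to 31751.

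The CTCF-AID cells without IAA were released in the same way. The lines lie in separately processed tables, so that values are set side by side and the difference between lines was not tested. Here 5584 of 10237 genes (54.5%) were lower and 1184 (11.6%) higher (66.1% in either direction), and with equal totals 3124 (30.5%) and 3210 (31.4%; 61.9% in either direction). The summed TPM was 31683 ± 4887 late and 40278 ± 2181 in the burst (SD, n = 4 each; exact permutation p = 0.0571, two-sided and without regard to replicates, smallest possible 0.0286). Within every replicate the late sums were below the burst sums, at 29193 and 28422 against 40151 and 39173 in replicate 1, 30184 against 38416 in replicate 2 and 38934 against 43370 in replicate 3, and all 6 within-replicate medians over genes were negative (−0.31 to −0.09). In replicate 1 each late library was set against each burst library, so that the 6 differences share libraries and are not independent. Of the 9574 genes in both tables, 2160 fell in CCNA-GFP cells. Of these 2061 also fell in CTCF-AID cells, which is 95.4% of the former and 38.8% of the 5306 genes that fell in the latter, where 55.4% of the shared genes did. Of the 1620 that rose, 766 rose there too, which is 47.3% of the former and 71.1% of the 1077 in the latter, where 11.2% of the shared genes did. With equal totals in the second line 77.5% of the falling and 88.1% of the rising genes were called in the same direction. A fall in CCNA-GFP and a rise in CTCF-AID was called for 1 gene, Stard5, named after its values were seen, and the opposite for 51 genes.

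The genes described above were also read in the second line. Mir20a fell by 1.99, Polg2 by 1.79, Insig1 by 1.76, Fam72a by 1.54 and Aurka by 0.91 on the log2 scale, and all 25 sterol synthesis genes, 31 of 38 spindle and kinetochore genes and 18 of 20 chaperone genes were called lower, beside 54.5% of all genes in this line. Of the lists with more rising members, the ubiquitin ligases had 9 lower and 9 higher of 32 and the chromatin remodellers 15 lower and 7 higher of 39 there, beside 54.5% lower and 11.6% higher among all genes. Mir34a (log2 1.24), Trim11 (0.87), Clint1 (0.83), Rian (0.70) and Pvt1 (1.29) rose, and Adat3 (limma adjusted p = 0.699), Mrpl53 (limma adjusted p = 0.38) and Hist1h2bq (limma adjusted p = 0.157) did not pass the test there. In the length classes 62.1% of genes up to 5 kb were lower and 3.79% higher, against 1.86% and 59.9% of those over 200 kb. Esrrb, not called in CCNA-GFP cells, was lower (log2 −0.28, limma adjusted p = 0.0367), where the median over all genes in this line was −0.23, and 0.00 with equal totals.

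**Figure D5:**
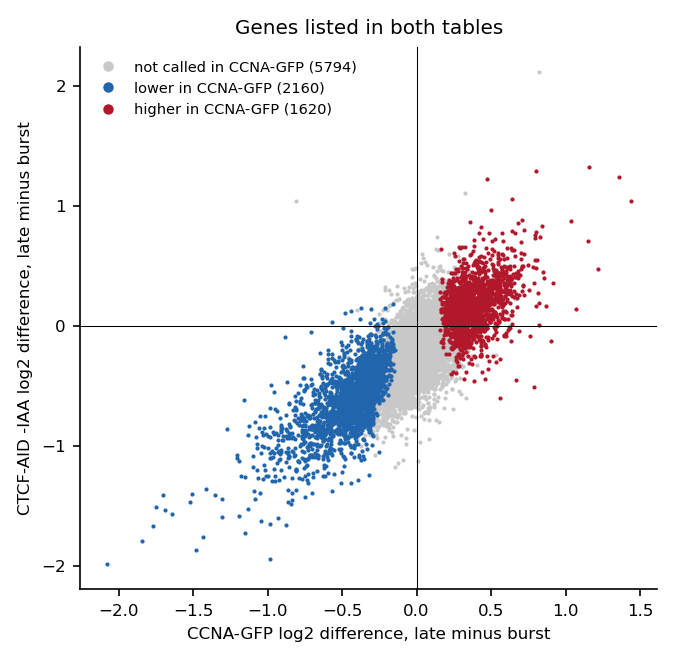
Fitted log2 difference (late minus burst) of the 9574 genes listed in both tables, in CCNA-GFP (x axis) and in CTCF-AID without IAA (y axis); each point is a gene, coloured by its call in CCNA-GFP (2160 lower, 1620 higher, 5794 not called). Falling genes lie below 0 on both axes in nearly all cases, and rising genes lie on both sides of 0 in CTCF-AID.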

How the data were processed

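Pre-mRNA of mouse ES cells was measured by ribo-depleted, stranded, paired-end RNA-seq. The authors deposited TPM values. Per the study's methods, reads were aligned with STAR to mm10 and quantified with RSEM over Gencode vM12 extended with a pre-mRNA isoform per gene. Genes were kept if in curated RefSeq and above a mean of 0.5 TPM in asynchronous cells or in a set minimum of post-mitotic samples. A listed gene can thus lie below 0.5 TPM in other libraries. The smallest steps between values differ by library, by a factor that the sources used here do not name. In the 7 libraries compared this factor ran from 2.64 to 3.81, and dividing by it gave more higher (1737) than lower genes (1504). The listed TPM sum to different totals, which do not follow this factor. Depth is unknown, as TPM hold no counts.

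From these, log2(TPM + 1) was tested with limma 3.58.1 (R 4.3.3) over all 9911 genes and 19 CCNA-GFP libraries, with 7 arms besides the replicate (asynchronous, mitotic, 20, 30 and 40 min each, burst and late) and Benjamini-Hochberg adjustment. A fold change on this scale understates the change of low genes. The replicate number was a block, since the study takes fold changes within replicates. CTCF-AID libraries without IAA were fitted in their own table. The fitting was tested on simulated data. Summaries used Python 3.11.15 and pandas 2.3.3.

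Named genes were the 12 largest called falls and rises that had 1 direction in all 4 differences and a mean of at least 1 TPM, up to 4 per gene list, pluripotency and immediate early factors, and the largest change per length class. Members and lists were chosen with earlier results of these data known. Annotation was Gencode vM21, in which 9900 of 9911 genes matched, and 8005 matched a RefSeq promoter. The 22 alternatives changed scaling, pseudocount, filter, block, arms or libraries. Some items are not reported here.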

Additional observations from a re-analysis of the deposited data

Results flagged for a closer look

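In 2 of 33 tests on named genes and library levels, 1 of the 4 late libraries stood apart from the others, where chance gives about 1 in 20. For Mrpl53 the gap of 120 min replicate 1 (6.61 TPM) to the next library made up 0.839 of the range of the 4 libraries on the log2(TPM + 1) scale, and for Rai14 that of the same library (7.74 TPM) made up 0.847, both above the critical value of Dixon for 4 samples.

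For Eno2, the gene of a neuronal enolase, and Rps10, a ribosomal protein gene, every within-replicate difference was positive in CCNA-GFP cells and negative in CTCF-AID cells without IAA. In both lines the differences of replicate 1 share libraries and are not independent. The log2 difference of late from burst was 0.37 and −0.28 for Eno2, and 0.90 and −0.12 for Rps10. The median over all genes was −0.01 in CCNA-GFP and −0.23 in CTCF-AID cells, and 0.03 and 0.00 with equal totals, so that Rps10 lay above the median of both lines. The difference between the lines was not tested. This pattern was seen for 60 of the 9574 genes that both lines list, and the reverse one for 5.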

How the results depend on the processing

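Of 67 genes named from the comparison, 55 kept their side of the threshold under each of the 22 alternatives that held them. The fit that dropped genes under a mean of 1 TPM did not hold all 67. Of 1470 gene values 1417 kept their side, with 50 that no longer passed, 3 that newly passed and 0 that reversed. A change of sign counted as reversed only where the main or the alternative value passed. The counts moved more. Deviations of same-numbered libraries from their stage means correlated above 0.1 in 23 of 28 pairs of stages and negatively in 5, each of which shares 1 number. The lowest was −0.11, at 60 against 90 min, so that the numbers were not shown to pair all libraries, although 17 of 18 libraries correlated best with their own number. Genes lower late (2223) numbered 1267 without the replicate block, 1475 of 6808 when genes under a mean level of 1 TPM were dropped (fewer genes tested) and 1177 with 90 min as the only late time, 835–2913 with a replicate left out and 1589–2754 with a library left out. Genes higher late (1673) numbered 716 without the block, 916 in a fit of the 7 libraries alone, 2868 with equal totals, 972 with 60 min as the only burst time and 962 with 90 min alone, 291–2013 with a replicate left out and 929–3100 with a library left out. At 90 against 60 min, 299 genes were lower and 58 higher without the block, and 1414 higher with equal totals. At 120 against 60 min these were 1195, 177 and 2420, and at 120 against 90 min 2 genes were higher with equal totals. In CTCF-AID cells 581 genes were higher without the block, and with equal totals 3124 were lower and 3210 higher, with a median log2 difference over all genes of 0.003845. With a replicate left out 3336–5948 were lower there. The median span stayed shorter in falling (10.28–16.48 kb) than in rising genes (39.90–58.39 kb) under all alternatives run. The alternatives for named genes, gene lists and spans were added after the data were seen. Why the counts moved was not tested. As depth is unknown, no limit of detection is given.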
